A study of Mus musculus with 192 samples.

Results

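The nuclear genes for the subunits of oxidative phosphorylation were followed in mouse bone marrow-derived dendritic cells exposed for 6 hours to ligands of innate immune receptors. The genes were chosen by name and by depth: every row whose symbol begins with Nduf and a, b, c, s or v, with Uqcr, with Cox and a digit from 4 to 8, or with Atp5, together with Sdha, Sdhb, Sdhc and Sdhd, provided that its counts over all libraries came to at least 1 per library on average. Of 23481 genes in the table, 92 carried such a symbol and 77 reached that depth; these 77 are called the members. Just inside the limit lay Ndufaf1 with 235 counts and Ndufaf3 with 291, and just outside it Ndufaf4 with 178 and Ndufaf5 with 153. The members comprised 35 genes of complex I, 3 assembly factors of complex I, 4 of complex II, 8 of complex III, 12 of complex IV with Ndufa4 counted there, and 15 of ATP synthase. Of them 70 passed the filter on low counts and were tested, and 7 did not: Cox7c, Ndufa10, Ndufa12, Ndufab1, Ndufaf1, Ndufaf3 and Ndufb2.

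All cells came from bone marrow of female C57BL/6J mice aged 6 to 8 weeks and were grown with GM-CSF at 15 ng per ml, the growth factor that turns marrow precursors into dendritic cells, so the controls carry that exposure too. The libraries form 64 groups of 3 replicates: a control group named Ctrl, 7 groups with 1 ligand, 21 with a pair and 35 with a triplet, which covers every pair and triplet of the 7 ligands. The ligands are PAM, LPS (lipopolysaccharide of bacterial outer membranes), HMW, Zymosan (labelled zymosan depleted), SeV, cGAMP (labelled 3′,3′-cGAMP, a cyclic dinucleotide) and CpGB, at doses that the labels do not give. Nothing in the labels says that replicates came from separate animals or cultures, so p-values measure the spread between these libraries, which may be technical.

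Oxidative phosphorylation runs in the inner mitochondrial membrane. Complex I takes electrons from NADH and complex II, which is also the succinate dehydrogenase of the tricarboxylic acid cycle, takes them from succinate; complex III passes them to cytochrome c and complex IV to oxygen. Complexes I, III and IV pump protons, and ATP synthase uses the resulting gradient to make ATP. Dendritic cells and macrophages that sense bacterial products are known to move from respiration to aerobic glycolysis within hours, and succinate and reverse electron flow through complex I are known sources of inflammatory signals. Most subunits are nuclear, and a core set is encoded by mitochondrial DNA; the mitochondrial transcripts are not analysed here.

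The stretches around the transcription start of 5 members are printed because these genes carry the results below. Ndufs7 fell most. The 3 genes Atp5g1, Atp5g2 and Atp5g3 encode the same mature c subunit of ATP synthase. Their values moved by different amounts with added ligands, but that difference was not tested. Uqcrfs1 was called higher with 4 added ligands, though not in every setting. The stretches are RefSeq sequences of build GRCm38.p6, 250 bases before to 50 bases after the start, 5′ to 3′ on the strand of the gene. Capitals mark motif matches on either strand.
Ndufs7, chr10:80249199-80249498, plus strand, capitals YY1 motif: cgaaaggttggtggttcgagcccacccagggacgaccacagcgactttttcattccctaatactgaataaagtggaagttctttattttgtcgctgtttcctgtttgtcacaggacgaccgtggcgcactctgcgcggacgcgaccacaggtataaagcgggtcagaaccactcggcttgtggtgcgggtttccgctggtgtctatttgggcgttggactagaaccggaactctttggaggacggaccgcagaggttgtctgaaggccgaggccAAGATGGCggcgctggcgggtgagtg
Atp5g1, chr11:96075582-96075881, minus strand, no match: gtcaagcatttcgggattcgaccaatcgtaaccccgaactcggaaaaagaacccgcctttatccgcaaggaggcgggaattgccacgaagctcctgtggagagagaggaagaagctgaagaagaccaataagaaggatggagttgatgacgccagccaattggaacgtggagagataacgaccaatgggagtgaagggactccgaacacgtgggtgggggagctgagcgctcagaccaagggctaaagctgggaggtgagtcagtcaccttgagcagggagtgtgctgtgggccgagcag
Atp5g2, chr15:102670998-102671297, minus strand, capitals NRF1 core: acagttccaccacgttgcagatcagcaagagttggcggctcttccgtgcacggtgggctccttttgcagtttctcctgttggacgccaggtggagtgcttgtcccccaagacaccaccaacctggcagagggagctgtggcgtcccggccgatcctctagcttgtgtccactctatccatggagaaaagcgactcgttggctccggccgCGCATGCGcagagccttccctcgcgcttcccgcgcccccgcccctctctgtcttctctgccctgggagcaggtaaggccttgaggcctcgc
Atp5g3, chr2:73911277-73911576, minus strand, capitals ERR half-site: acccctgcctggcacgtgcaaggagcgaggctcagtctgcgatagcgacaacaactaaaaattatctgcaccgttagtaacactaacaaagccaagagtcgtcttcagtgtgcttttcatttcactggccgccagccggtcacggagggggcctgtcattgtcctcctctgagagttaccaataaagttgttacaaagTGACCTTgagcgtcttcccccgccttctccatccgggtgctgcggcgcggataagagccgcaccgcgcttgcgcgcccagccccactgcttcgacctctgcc
Uqcrfs1, chr13:30545267-30545566, minus strand, no match: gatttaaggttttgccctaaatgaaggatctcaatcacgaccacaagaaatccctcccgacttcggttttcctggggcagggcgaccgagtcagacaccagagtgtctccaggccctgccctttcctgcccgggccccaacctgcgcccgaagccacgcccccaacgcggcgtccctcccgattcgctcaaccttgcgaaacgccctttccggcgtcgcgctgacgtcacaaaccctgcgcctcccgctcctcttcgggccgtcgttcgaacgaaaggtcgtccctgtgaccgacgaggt

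RefSeq windows of this length were found for 66 of the 77 members and for 26959 other genes. The NRF1 core CGCATGCG, bound by a factor known to drive respiratory chain genes, lay in 9 member windows (13.6%) against 2.04% of the other genes. The ETS motif CCGGAAG lay in 17 (25.8% against 9.89%), the YY1 motif AAGATGGC in 10 (15.2% against 3.16%) and the ERR half-site AAGGTCA in 7 (10.6% against 5.37%). Of the motifs of inflammatory factors, the kappaB motif lay in 5 (7.58% against 9.56%) and the ISRE motif in 2 (3.03% against 3.99%). Both strands were searched, and matches may overlap; they are descriptions of letters in these windows.

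Total counts ran from 46564 to 610234 with a median of 171616, and the Ctrl libraries were shallow, with 61823, 68941 and 89530 counts. Levels are given as CPM, counts relative to library totals adjusted by TMM factors; at the depth of Ctrl replicate 2, 84 CPM rests on 7 counts. All groups against Ctrl share these 3 libraries. Of the dendritic cell markers, Cd74, Itgax and the class II genes were high, whereas Flt3, Cd80 and Zbtb46 had 95, 56 and 99 counts over all libraries. The summed level of the 10 dendritic cell markers was lowest in Ctrl (6070 CPM) and reached 8720, and that of the 7 macrophage markers was highest in Ctrl (11200 CPM) and fell to 6220 in LPS+Zymosan+cGAMP. Granulocyte markers ranged from 496 to 926 CPM, lymphocyte markers from 0 to 17.7, mast cell markers from 0 to 21.1, and all 6 erythroid markers were at 0 in every library. The macrophage sum therefore moved with the members, but Lyz2 led it. Lyz2 had 223027 counts over all libraries, and the next marker, Csf1r, had 26397. Of 6 tested macrophage markers 4 fell and 2 rose with LPS against Ctrl, where 12.3% of all genes fell and 17.6% rose. The part of these markers in the fall of the members was not tested. In bulk RNA, fewer cells of a type and less RNA per cell cannot be told apart.

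By the 500 most variable genes, 5 libraries stood apart from the other 2 of their group: replicate 1 of HMW+SeV+CpGB, whose closest group was cGAMP+CpGB, replicate 1 of HMW+cGAMP+CpGB (closest to SeV+CpGB), replicate 3 of LPS+SeV+CpGB, replicate 3 of PAM+HMW+SeV and replicate 1 of Zymosan+SeV+cGAMP. The first pair correlated at 0.18 and 0.19 with the rest of their own groups and at 0.67 and 0.62 with the closest other group, so these libraries go against their labels. All are triplets. The main counts that rest on them are given with and without them.

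Across the 64 groups the members varied little. A test of any difference between groups, edgeR's quasi-likelihood F-test adjusted by Benjamini-Hochberg over all 4720 genes tested, called 25 of 70 members (35.7%), where 70% of all genes tested were called. Leaving out the 5 libraries gave 22 (67.5% of all genes), leaving out 1 replicate number of all groups 7 to 10 (54.4% to 57.4%), and thinning all libraries to 46564 counts (1 random draw, which left 31 members to test) 10 (76.8%). By complex, 10 of 15 genes of ATP synthase, 3 of 4 of complex II, 8 of 31 of complex I, 2 of 8 of complex III and 2 of 11 of complex IV were called. Among the largest F values were those of Atp5g1 (F 2.81, adjusted p = 3.77e-08), Ndufs7 (2.55, 7.2e-07), Uqcrh (1.95, 0.000404) and Atp5h (1.86, 0.00105). The smallest belonged to Uqcrq (0.8), Ndufa1 (0.79) and Cox5b (0.73, adjusted p = 0.935), small subunits of complexes III, I and IV.

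The summed level of the 77 members was 9000 ± 434 CPM in Ctrl (SD, n = 3) and 7020 ± 168 in LPS. HMW lay close to Ctrl at 8830 ± 308, and the other single ligands lay between 7690 ± 289 for SeV and 7970 ± 530 for CpGB. The lowest group was PAM+Zymosan+cGAMP at 6500 ± 254 CPM. Group medians were 9000, 7770, 7220 and 7060 CPM with 0, 1, 2 and 3 ligands. Complex I went from 2280 CPM in Ctrl to a median of 1510 over the triplets and complex II from 539 to 340, whereas complex IV went from 2160 to 1910. Under library size alone Ctrl stood at 11100 CPM and LPS at 7180. Ctrl had the highest mean of all 64 groups for 17 of the 77 members, and a mean above the median of the stimulated groups for 61. No share over all genes is given here for these counts, so they cannot be set against a background.

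**Figure D1:**
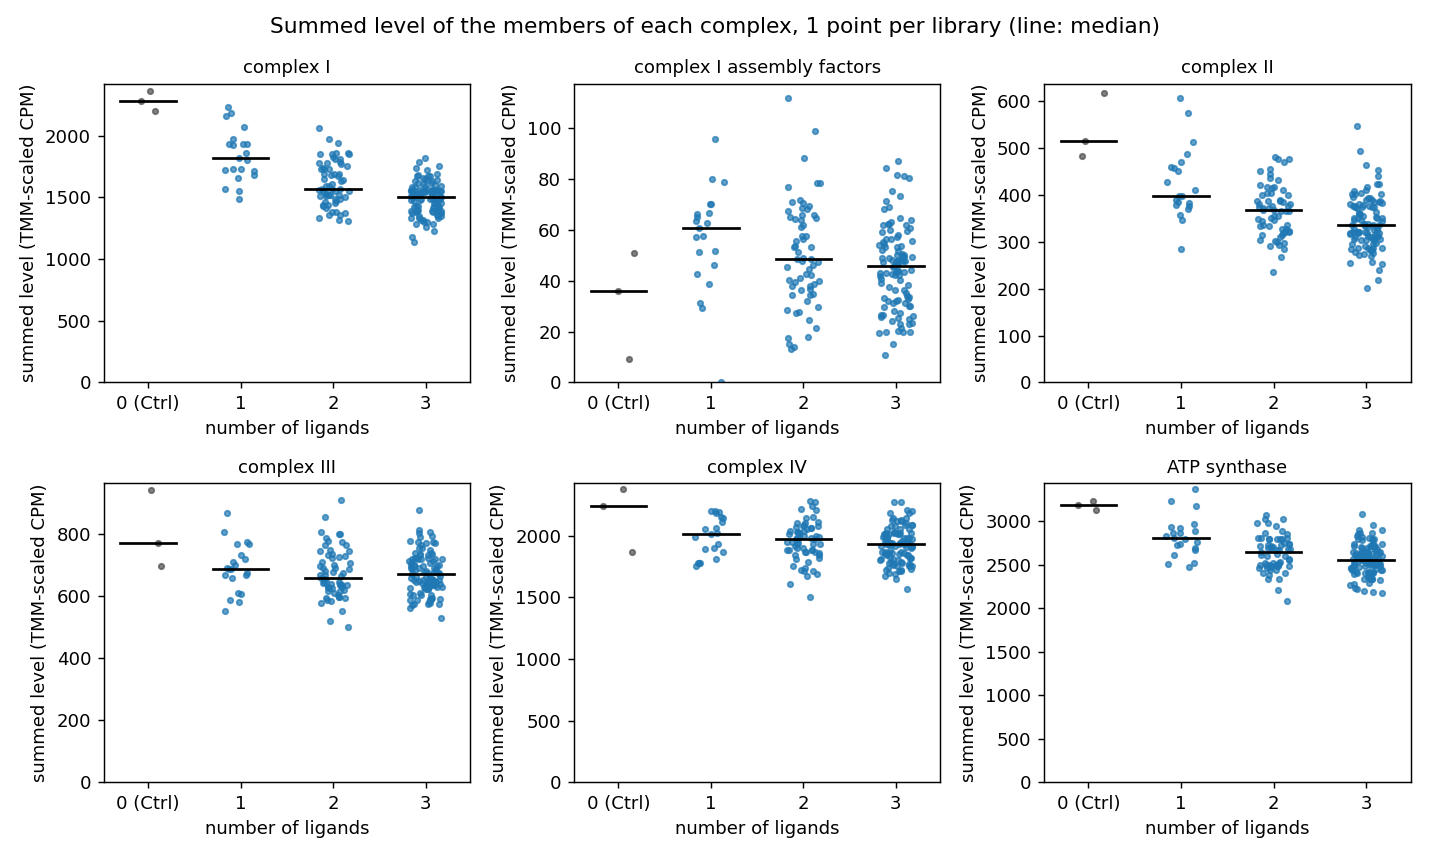
Summed level of the members of each complex (y axis, TMM-scaled CPM) by number of ligands (x axis), 1 point per library with the median as a line. The library medians of complexes I, II and IV and ATP synthase were highest in Ctrl and lower with each further ligand; triplet libraries of complexes II, III and IV overlapped the Ctrl libraries, those of complex I and ATP synthase did not, and the assembly factors hold few counts.

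Each single ligand was compared with Ctrl to ask which members respond to 1 receptor. Every call was a fall: 10 of 70 members with LPS (14.3%, where 12.3% of all genes tested fell and 17.6% rose), 4 with PAM (7.42% fell, 9.89% rose), 5 with SeV (6.74% fell, 12.5% rose), 3 with Zymosan (2.82% fell, 6.33% rose), 3 with cGAMP (7.65% fell, 14.1% rose), 3 with CpGB (7.73% fell, 13.4% rose) and 1 with HMW (0.0212% fell, 1.4% rose). These shares lie near the background for most ligands. The member median log2 fold change was -0.39 with LPS, -0.31 with PAM and between -0.20 and -0.26 with Zymosan, SeV, cGAMP and CpGB, but 0.02 with HMW, against all-gene medians between -0.05 and 0.05. Other scaling moved the all-gene median with LPS from -0.04 to -0.21 (DESeq2's size factors in edgeR) or -0.30 (library size alone); a scaling shifts all genes alike, so members are read relative to that median.

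Ndufs7, a core subunit of complex I next to the quinone site, showed the clearest fall. It had 140, 84 and 154 CPM in the Ctrl libraries (11, 7 and 17 counts) and 14.5, 26.7 and 38.3 CPM with LPS (2, 5 and 9 counts). The LPS libraries were all below the Ctrl libraries. The log2 fold change was -2.15 ± 0.44 (SE; edgeR, adjusted p = 2.43e-05), and PAM (-1.18, 0.0209) and CpGB (-1.16, 0.0212) also passed; both calls were lost without Ctrl replicate 1 or 3, with an adjusted p of up to 0.17 and 0.195. With HMW the libraries read 94.8, 77.3 and 110 CPM and overlapped Ctrl.

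Uqcrh, the hinge protein of complex III, read 229, 216 and 172 CPM in Ctrl. It read 109, 80.1 and 89.3 CPM with LPS, 113, 90.2 and 81.1 with PAM, and 103, 94.5 and 96.8 with HMW, all below every Ctrl library. CpGB read 151, 75.1 and 154 CPM, and Zymosan 166, 134 and 119, also below Ctrl but not called, while SeV and cGAMP overlapped Ctrl. The log2 fold changes were -1.15 ± 0.30 with LPS (edgeR, adjusted p = 0.00116), -1.10 ± 0.30 with PAM (0.00287) and -1.05 ± 0.29 with HMW (0.0357); the last was the single member called with HMW. The transcript shares 7.83% of its 50-base words with 1 other gene, Uqcrh-ps1, so reads may have been split between them.

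Cox7a2l, a factor of respiratory supercomplexes, read 191, 144 and 181 CPM in Ctrl against 65.3, 85.4 and 68 with LPS and 82.9, 81.1 and 71.6 with SeV. These groups did not overlap. Its log2 fold change was -1.23 ± 0.36 with LPS (edgeR, adjusted p = 0.0042), -1.15 with SeV (0.0153) and -0.91 with CpGB (0.048). Sdhb, the iron-sulfur subunit of complex II, read 127, 84 and 109 CPM in Ctrl and 58, 64.1 and 29.8 with LPS (-1.12 ± 0.42, edgeR, adjusted p = 0.0293), and the groups did not overlap. Atp5g1 read 152, 168 and 227 CPM in Ctrl and 79.8, 112 and 119 with LPS (-0.80 ± 0.30, edgeR, adjusted p = 0.0313), again without overlap.

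Further calls were accessory or small subunits and, with Ndufs8, another core subunit of complex I. Ndufb8 of complex I read 165, 96 and 72.6 CPM in Ctrl, 36.3, 58.7 and 12.8 with LPS and 18.9, 55.1 and 22.7 with CpGB. The LPS and CpGB libraries lay below all Ctrl libraries. The log2 fold change was -1.63 with LPS (edgeR, adjusted p = 0.00471), -1.63 with CpGB (0.00705) and -1.36 with SeV (0.0326). Atp5j2 of ATP synthase read 152, 72 and 227 CPM in Ctrl and 26.2, 54.6 and 70.8 with Zymosan (-1.50, edgeR, adjusted p = 0.00223), so its Ctrl libraries were themselves far apart. Ndufs8 with Zymosan (-1.27, 0.0455), Ndufa11 with SeV (-1.54, 0.041) and Ndufv3 (-1.40, 0.0159) and Atp5j2 (-0.99, 0.0307) with cGAMP also passed, and the Ndufv3 and Atp5j2 libraries with cGAMP overlapped Ctrl.

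Few of these calls stood without each library in turn, by the same edgeR test. Of 29 calls, 4 passed under all 6 left-out libraries: Uqcrh with PAM (adjusted p at most 0.0302), Uqcrh with LPS (0.0233), Cox7a2l with LPS (0.0378) and Ndufs7 with LPS (0.00275). Of these, Uqcrh with PAM was lost with no filter on low counts (-0.94, 0.0577) and Cox7a2l with LPS without replicate 3 of all groups (-1.08, 0.0987). Without Ctrl replicate 1 or Ctrl replicate 3, 21 calls were lost in each case, and 8 without Ctrl replicate 2. Ndufs8, called with LPS at -1.35, stood at -0.57 without Ctrl replicate 3 (adjusted p = 0.54) and with Zymosan at -0.50 (0.741). Atp5j2 with Zymosan stood at -1 without Ctrl replicate 3 (0.235). Sdhb and Atp5g1 with LPS were lost without Ctrl replicate 1 or 3, among others (adjusted p up to 0.204 and 0.283), Cox7a2l with SeV likewise (0.115), and Ndufb8 with LPS without Ctrl replicate 1 (0.126). Without the 5 libraries that stood apart, which enter through the shared fit, Atp5g1 (-0.71, 0.0614), Sdhb (-1.03, 0.0502) and Atp5g3 (-0.55, 0.0626) with LPS lost their call, as did Ndufs8 with Zymosan (-1.23, 0.0527), Ndufa11 with SeV (-1.46, 0.0609) and Cox7a2l with CpGB (-0.83, 0.0706). Uqcrh with HMW was lost without any 1 of the 6 libraries (adjusted p from 0.0714 to 0.262).

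**Figure D2:**
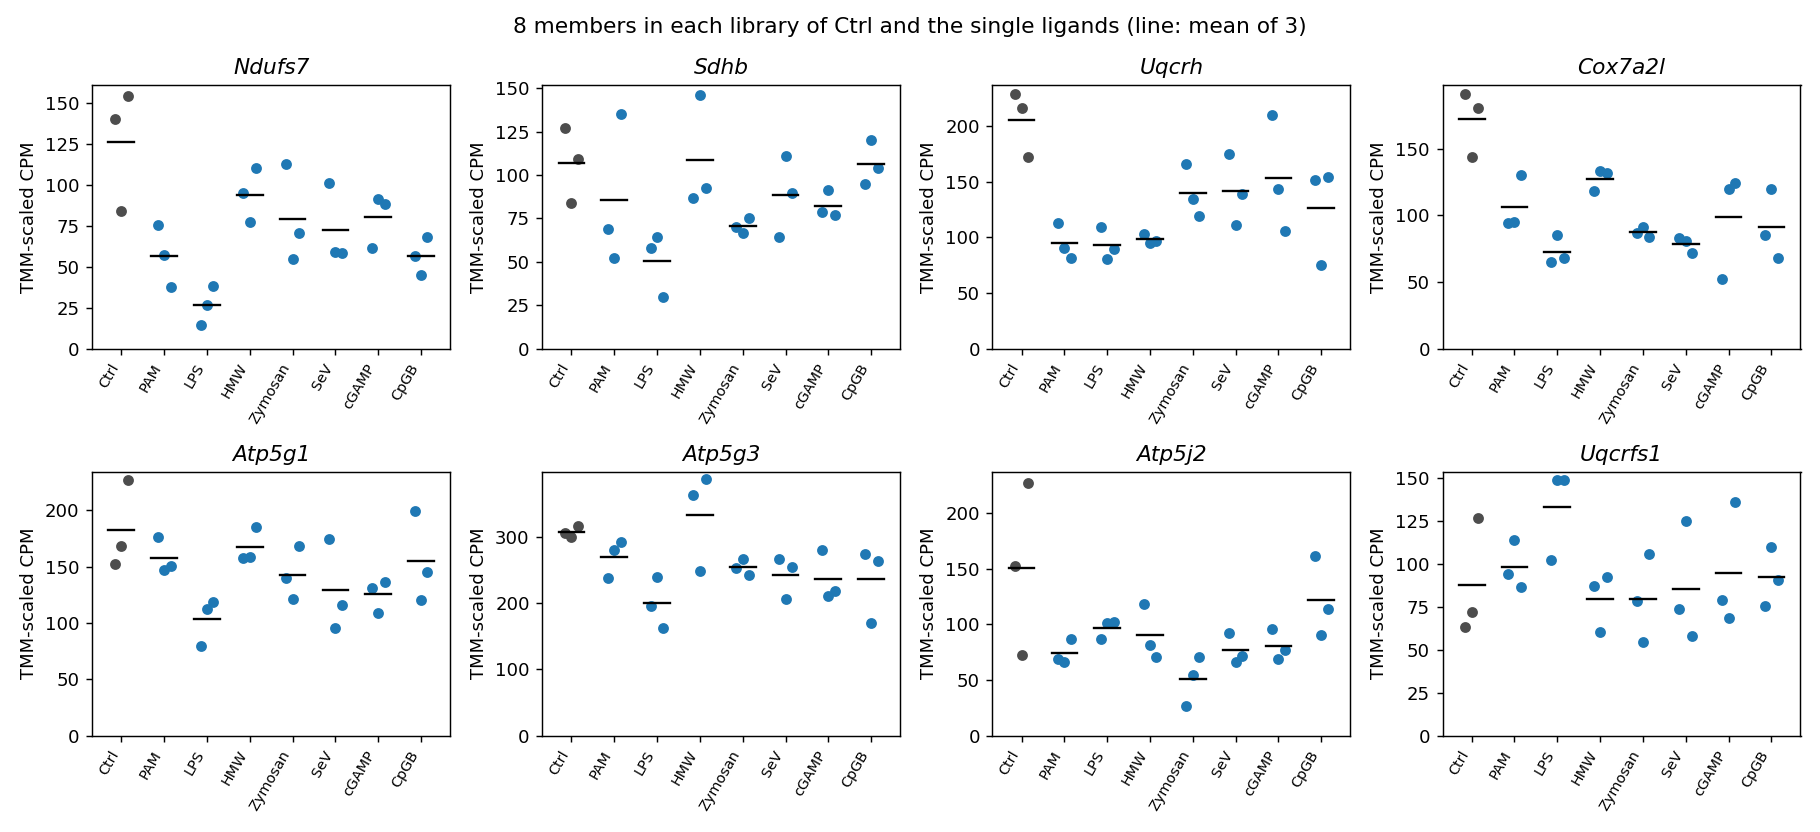
Level of 8 members (y axis, TMM-scaled CPM) in each library of Ctrl (grey) and the 7 single ligands (blue), with the mean of 3 as a line. The LPS libraries of Ndufs7, Sdhb, Uqcrh, Cox7a2l and Atp5g1 lie below all Ctrl libraries, and the HMW libraries do so for Uqcrh and Cox7a2l.

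To use all stimulated libraries and none of the Ctrl libraries, each ligand was also compared with its absence over 21 backgrounds, the 6 other single ligands and 15 pairs, as the mean log2 difference between background plus ligand and background. Adding LPS lowered 29 of 70 members and raised 6 (background 29.2% lower, 27.9% higher), adding Zymosan lowered 24 and raised 0 (20% lower, 20.5% higher), and adding cGAMP lowered 21 and raised 3 (29.7% lower, 26.6% higher). Adding PAM lowered 17 and raised 1 (18.6% lower, 18.7% higher), adding SeV lowered 8 and raised 1 (13.7% lower, 19% higher), and adding CpGB lowered 3 and raised 4 (14.9% lower, 18.5% higher). Adding HMW changed 0 members by edgeR and 0 by DESeq2, with 1 at an unadjusted p under 0.05 (1.74% lower, 8.45% higher). The share of members that fell was 41.4% with LPS, 34.3% with Zymosan, 30% with cGAMP and 24.3% with PAM, and the member medians lay between -0.12 and -0.15 for these 4 ligands, against -0.01 to -0.05 for all genes. The differences between ligands in these counts were not tested, and the comparisons share libraries with each other.

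The split depended on the scaling. With library size alone the members lower and higher were 50 and 2 for LPS, 46 and 1 for cGAMP, 41 and 1 for PAM, 16 and 0 for SeV and 15 and 0 for CpGB, where 40.8%, 44.3%, 33.9%, 24.3% and 21.7% of all genes tested were called lower, and with DESeq2's size factors in edgeR 11 and 0 for SeV and 6 and 3 for CpGB (17% and 16.5% of all genes lower). In the thinned libraries, 10 of 31 members were called for LPS, 9 for cGAMP, 5 for Zymosan and 2 for PAM, all lower, where 30%, 28.2%, 20.8% and 18.6% of all genes tested there were lower and 31.7%, 29.7%, 21.2% and 19.3% higher. Without replicate 3 of all groups, 0 members were called for SeV and 6 for PAM (5 lower), where 7.14% and 13.4% of all genes were lower. Without the 5 libraries that stood apart, the counts lower and higher were 26 and 6 for LPS, 24 and 0 for Zymosan, 19 and 4 for cGAMP, 15 and 1 for PAM, 5 and 1 for SeV and 2 and 5 for CpGB (26.8%, 19.4%, 28.1%, 18.1%, 10.8% and 13.8% of all genes lower).

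Many calls of single members did not stand under every setting. Each call was read again under 10 settings of the whole analysis: DESeq2, its size factors in edgeR, library size alone, no filter on low counts, thinned libraries, a replicate block, and leaving out the 5 libraries or replicate 1, 2 or 3 of all groups, which removes 64 libraries. Wherever the gene was tested, the call stood in 9 of 29 falls with LPS, 4 of 24 with Zymosan, 5 of 21 with cGAMP and 0 of 17 with PAM, 0 of 8 with SeV and 0 of 3 with CpGB. Of those that stood, 6 with LPS, 2 with Zymosan and 3 with cGAMP were not tested in the thinned libraries. The falls that stood were those of Ndufs7, Ndufs1, Ndufb3, Ndufb7, Ndufb10, Ndufa4, Atp5g1, Atp5g2 and Atp5h with LPS, of Ndufa2, Ndufv2, Atp5h and Atp5o with Zymosan, and of Ndufs7, Ndufb4, Ndufv3, Atp5g1 and Atp5c1 with cGAMP. Of these genes, Atp5h shares 47.9% and Ndufb4 37% of its 50-base words with other genes, so their values are uncertain. Atp5o shares 50.3% with other gene entries, and the entry with most matches carries the same symbol. How far the values of Atp5o mix with those of different genes is unknown. Among rises, those of Atp5k with LPS and cGAMP stood, but neither was tested in the thinned libraries. The other calls for added ligands were lost in at least 1 setting, and the larger losses are given beside them as a log2 value and adjusted p from edgeR.

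**Figure D3:**
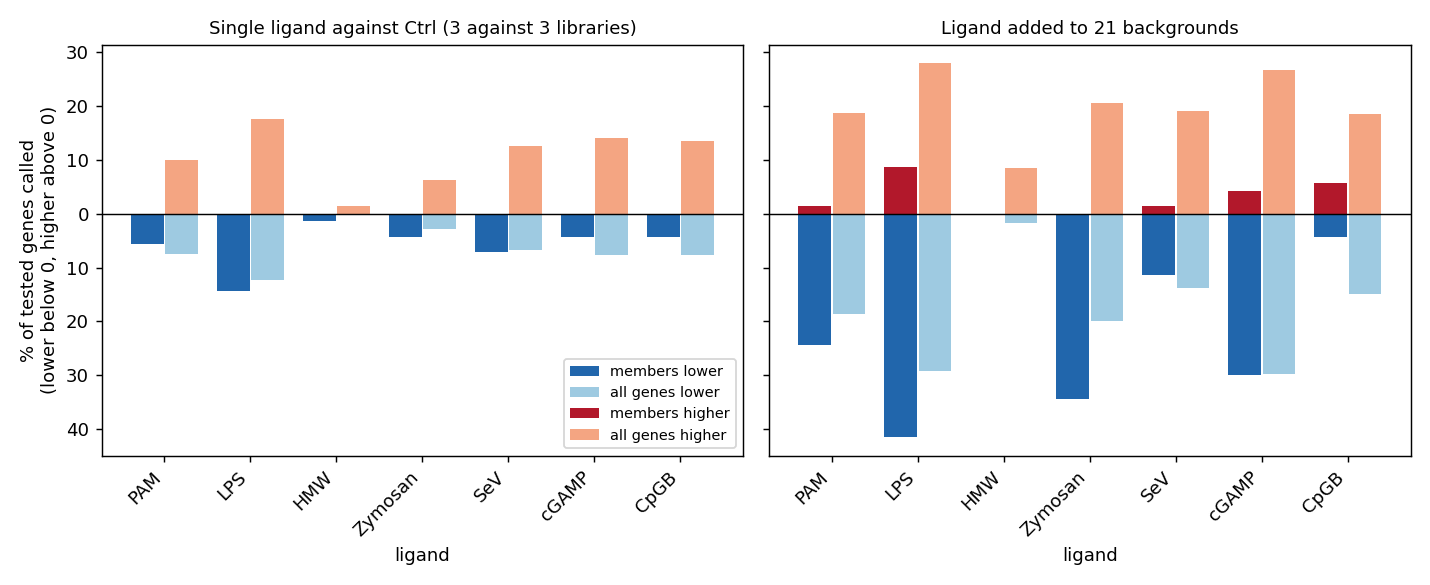
Share of tested genes called lower (bars below 0) or higher (bars above 0) in % (y axis) for each ligand (x axis), for the 70 members and for all 4720 genes tested. Against Ctrl no member was called higher; when a ligand was added to 21 backgrounds, 41.4% of the members fell with LPS and none were called with HMW.

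The 4 members that fell most with added LPS belong to complex I. Its 31 tested genes included 14 that fell and 2 that rose with LPS, 11 that fell with Zymosan, 11 that fell and 1 that rose with cGAMP, 6 that fell with PAM and 2 each with SeV and CpGB. Of all genes tested, 29.2% fell with LPS, 20% with Zymosan, 29.7% with cGAMP, 18.6% with PAM, 13.7% with SeV and 14.9% with CpGB, so the counts with cGAMP and PAM lie near the background. Leaving out the 5 libraries that stood apart, 13 fell with LPS, 11 each with Zymosan and cGAMP, 5 with PAM and 1 each with SeV and CpGB. Ndufs7 had group means from 21.9 to 46.3 CPM (median 32.7) in the 22 groups with LPS and from 19.6 to 94 (median 46.6) in the 41 without it; the ranges overlapped, and no group with LPS exceeded 46.3 CPM. Adding LPS lowered it by 0.68 on the log2 scale (-0.68 ± 0.10, edgeR, adjusted p = 2.63e-09), with lower values in 18 of 21 backgrounds. It also fell with cGAMP (-0.44, 0.000121), PAM (-0.38, 0.000875), SeV (-0.27, 0.0294) and Zymosan (-0.25, 0.0486); the PAM call was lost without replicate 3 (-0.28, 0.129), the SeV call in 5 settings (-0.18 and 0.385 without replicate 3) and the Zymosan call in 6 (-0.22 and 0.211 without replicate 2).

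Ndufs1, the large iron-sulfur subunit of the electron input arm, went from a mean of 44.4 to 32 CPM with LPS (-0.53 ± 0.10, edgeR, adjusted p = 3.45e-06), lower in 15 of 21 backgrounds. The accessory subunit Ndufb3 went from 31.5 to 21 CPM with LPS (-0.60, edgeR, adjusted p = 2.12e-05), and from 30.9 to 23.2 with Zymosan (-0.39, 0.00963; -0.36 and 0.0871 without replicate 1). Ndufa2 went from 67.8 to 49.2 CPM with Zymosan (-0.45, edgeR, adjusted p = 5.85e-06), lower in 19 of 21 backgrounds, and also fell with SeV (-0.27, 0.0108; -0.18 and 0.217 without replicate 1). Ndufb4 went from 54.7 to 40.6 CPM with cGAMP (-0.46, edgeR, adjusted p = 2.81e-05), lower in 18 of 21. Ndufb10 passed with PAM (-0.36, 0.014), but not with no filter (0.0994) or without replicate 1 (0.082) or 2 (-0.23, 0.301). Ndufb11 passed with CpGB (-0.28, 0.0425), but not with no filter (0.105) or without replicate 1, 2 or 3 (0.0716, 0.206 and 0.0926). These genes belong to different modules of the complex.

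Some subunits of complex I passed in the other direction with a ligand, none of them in every setting. Ndufs3 rose with cGAMP (0.28, edgeR, adjusted p = 0.0203) and fell with Zymosan (-0.33, 0.00997), but the rise was 0.14 (0.405) without replicate 2 and 0.18 (0.139) by library size alone, and the fall was -0.24 (0.205) without replicate 3. Ndufs4, chosen after its values were seen, rose with LPS (0.26, 0.0202; 0.20 and 0.218 without replicate 3) and fell with Zymosan (-0.27, 0.027; -0.23 and 0.199 without replicate 2). Ndufs3 shares 39.7% of its 50-base words with other genes, and its values are uncertain for that reason. The only assembly factor tested, Ndufaf7, was not called with any ligand.

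**Figure D4:**
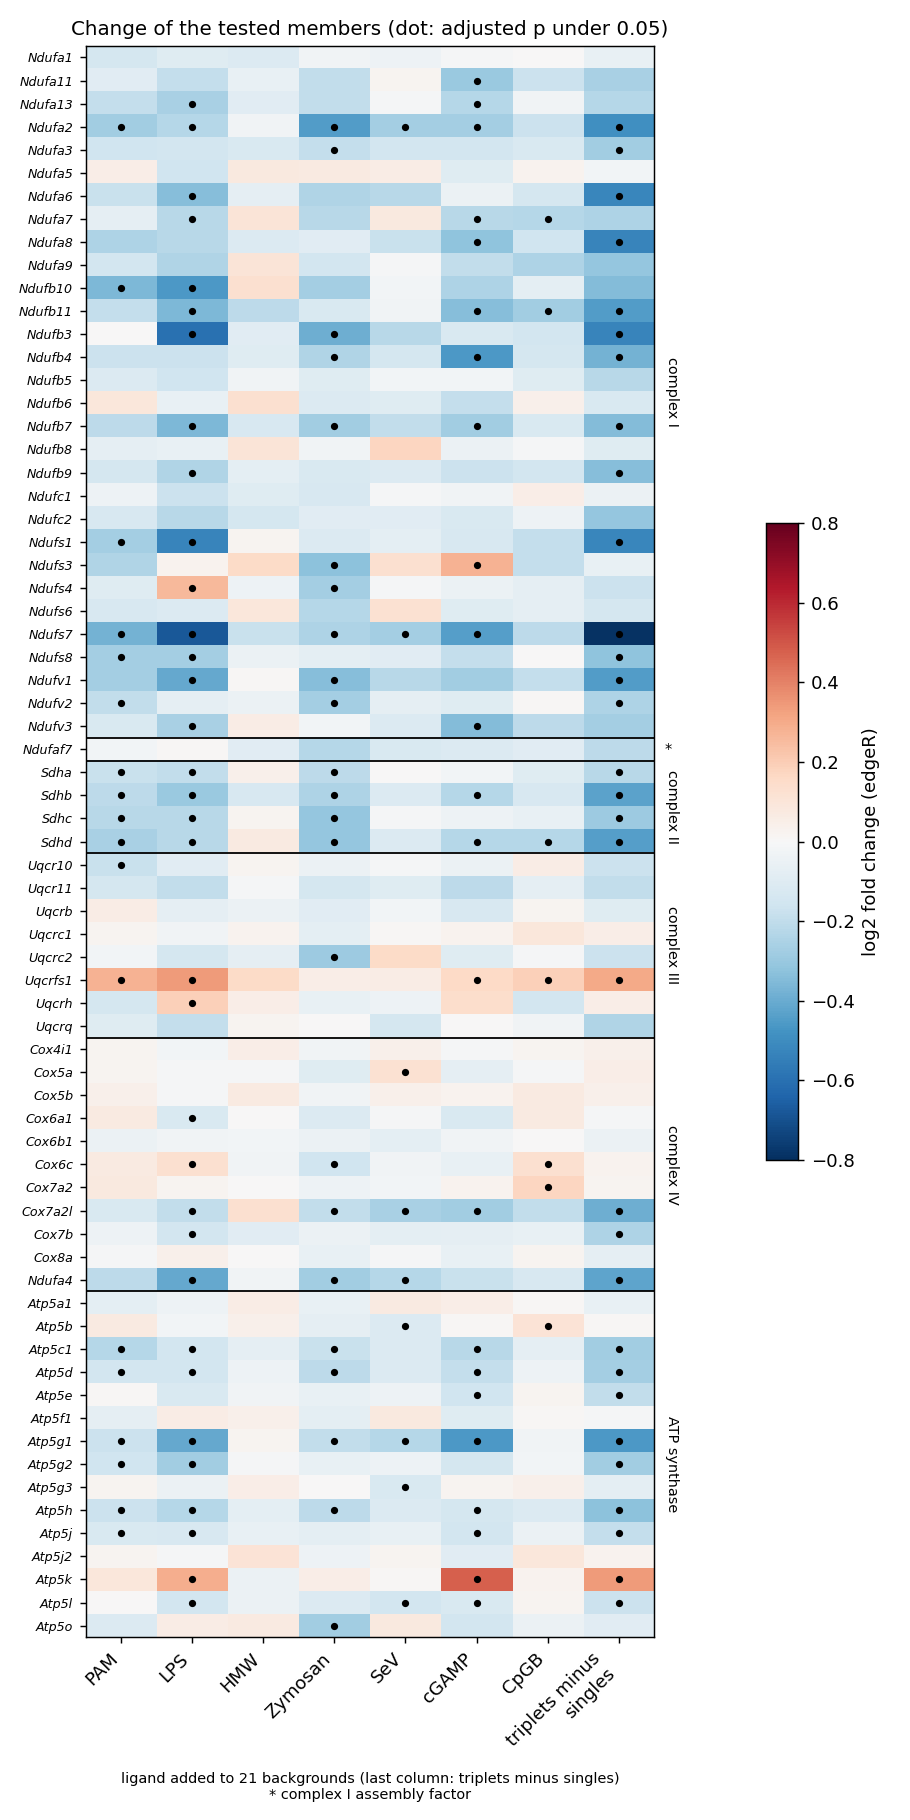
Log2 fold change (colour, edgeR) of tested members (rows, by complex; 1 member is not drawn) when each ligand is added to 21 backgrounds, and between triplets and single ligands (last column); dots mark an adjusted p under 0.05. Dots on falls outnumber those on rises, Uqcrfs1 was called higher with 4 ligands and Atp5k with 2, and the HMW column holds no dot.

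All 4 genes of complex II fell with LPS, PAM and Zymosan, although Sdhd with PAM (-0.26, edgeR, adjusted p = 0.00339) stood at 0.09 in the thinned libraries. There the calls of Sdha, Sdhc and Sdhd with these ligands were all lost (adjusted p from 0.0511 to 0.697), and calls also ended with 1 replicate number left out: Sdha with LPS without replicate 1 (-0.12, 0.153), Sdhb with PAM (-0.13, 0.354) and Zymosan (-0.16, 0.238) and Sdhc with LPS (-0.13, 0.247) without replicate 2, Sdhd with LPS without replicate 1 (-0.10, 0.403), and others. Without the 5 libraries all 4 genes fell with each of the 3 ligands. Sdha, the flavoprotein that oxidises succinate, went from 128 to 111 CPM with LPS (-0.20 ± 0.06, edgeR, adjusted p = 0.00411) and from 128 to 110 with Zymosan (-0.21, 0.00379). Sdhb went from 75.7 to 61.8 CPM with LPS (-0.30 ± 0.08, 0.00141; -0.21 and 0.0913 without replicate 2), lower in 19 of 21 backgrounds. The membrane anchors Sdhc (101 to 81.9 CPM; -0.31, 8.88e-05) and Sdhd (88.9 to 71.6 CPM; -0.31, 0.000397) each had their largest fall with Zymosan. With cGAMP, Sdhb (-0.23, 0.0151) and Sdhd (-0.23, 0.00777) fell, while Sdha stood at -0.02 and Sdhc at -0.04. Without replicate 1 these falls were -0.17 (0.172) for Sdhb and -0.10 (0.434) for Sdhd. Sdhd was also 1 of 3 members that fell with CpGB (-0.23, edgeR, adjusted p = 0.0138; -0.18 and 0.161 without replicate 1).

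In complex III adding LPS lowered 0 genes and raised 2. Its Rieske iron-sulfur protein Uqcrfs1 had group means from 91 to 163 CPM (median 121) with LPS and from 69.9 to 143 (median 101) without, with overlapping ranges. Adding LPS raised it by 0.34 ± 0.07 on the log2 scale (edgeR, adjusted p = 4.09e-06), with lower values in only 4 of 21 backgrounds. It also rose with PAM (0.28, 0.00014), CpGB (0.19, 0.0208) and cGAMP (0.16, 0.0315). In the thinned libraries the values were 0.05 with LPS (0.758), 0.16 with PAM (0.328) and 0.09 with CpGB (0.639), and by library size alone the CpGB value was 0.12 (0.145), so none of these passed. The cGAMP value was -0.02 (0.889) in the thinned libraries. Against Ctrl the same gene read 102, 149 and 149 CPM with LPS and 63.5, 72 and 127 in Ctrl, which overlap, and it was not called. Uqcrh rose with LPS on this average (0.19 ± 0.06, edgeR, adjusted p = 0.00494), although LPS alone lowered it against Ctrl; the average was 0.05 (0.72) in thinned libraries and 0.09 (0.194) by library size alone. Of the other 6 genes, Uqcr10 fell with PAM (-0.18, 0.0455) and Uqcrc2, which shares 24.8% of its 50-base words with another gene, with Zymosan (-0.29, 0.00453), not in every setting (adjusted p up to 0.255 and 0.089).

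Of the 11 tested genes of complex IV, 4 fell and 1 rose with added LPS (29.2% of all genes lower, 27.9% higher). With Zymosan 3 fell (20% lower), and with SeV 2 fell and 1 rose (13.7% lower, 19% higher). With cGAMP 1 fell (29.7% lower), with CpGB 2 rose (18.5% higher), and with PAM and HMW none were called. Leaving out the 5 libraries that stood apart, 2 fell and 1 rose with LPS. The nuclear subunit Cox4i1 read 267, 264 and 354 CPM in Ctrl and 268, 267 and 183 with LPS, and the mean was 284 CPM without and 280 with added LPS (-0.02 ± 0.04, edgeR, adjusted p = 0.721). Cox5a rose slightly with SeV (0.12, 0.0456) and Cox7a2 with CpGB (0.17, 0.0104; 117 to 132 CPM), and both calls depended on the processing. Cox5a did not pass by DESeq2 (0.10, 0.125), with its size factors in edgeR (0.10, 0.101), with no filter on low counts (0.0999), by library size alone (0.06, 0.33), thinned (0.05, 0.689) or without replicate 1 (0.117) or 3 (0.174) of all groups. Cox7a2 did not with no filter (0.16, 0.0987), by library size alone (0.11, 0.124), thinned (0.12, 0.414) or without replicate 1 (0.167) or 3 (0.0579). Cox7a2l fell with cGAMP (-0.28, edgeR, adjusted p = 0.00242), SeV (-0.26, 0.0104), LPS (-0.20, 0.0339) and Zymosan (-0.20, 0.043); the LPS value was -0.17 (0.0602) without the 5 libraries, -0.12 (0.372) without replicate 2 and -0.05 (0.778) without replicate 3, the Zymosan value -0.09 (0.544) and the SeV value -0.18 (0.246) without replicate 2, and the cGAMP value -0.24 (0.0667) without replicate 3. Cox5a shares 32% of its 50-base words with other genes and Cox7a2l 17.7%.

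Ndufa4, once assigned to complex I and now to complex IV, read 38.1, 48 and 63.5 CPM in Ctrl and 65.3, 64.1 and 29.8 with LPS, which overlap, and it was not called with any single ligand. Over the 21 backgrounds it went from 58.3 to 43.7 CPM when LPS was added (-0.41 ± 0.09, edgeR, adjusted p = 5.87e-05), lower in 17 of 21. It also fell with Zymosan (-0.28, 0.00963; -0.24 and 0.101 without replicate 2) and SeV (-0.23, 0.0379), the last not without the 5 libraries that stood apart (-0.20, 0.102) or without replicate 3 (-0.16, 0.385). AA467197 encodes its paralog, which is known to take the place of Ndufa4 in complex IV of inflamed cells. It read 254, 276 and 227 CPM in Ctrl and 2780, 3330 and 3390 with LPS, a log2 rise of 3.66 ± 0.19 (edgeR, adjusted p = 2.24e-46), whereas HMW gave 261, 275 and 211 CPM (-0.02, adjusted p = 1).

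The remaining single ligands placed AA467197 between these values, from 593 to 680 CPM with Zymosan up to 1220 to 1920 with CpGB, and none of these libraries overlapped Ctrl. Adding a ligand raised it in every case, from 0.17 with HMW (edgeR, adjusted p = 7.25e-07) to 0.89 with PAM and 1.45 ± 0.03 with LPS (1.42e-115). In the 22 groups with LPS its means ran from 3170 to 4830 CPM (median 3780) and in the 41 without from 249 to 3800 (median 2070). Ndufa4 ran from 27.9 to 55.5 CPM (median 44.1) and from 25.6 to 83.5 (median 52) in the same groups. Both genes overlapped between the 2 sets of groups.

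**Figure D5:**
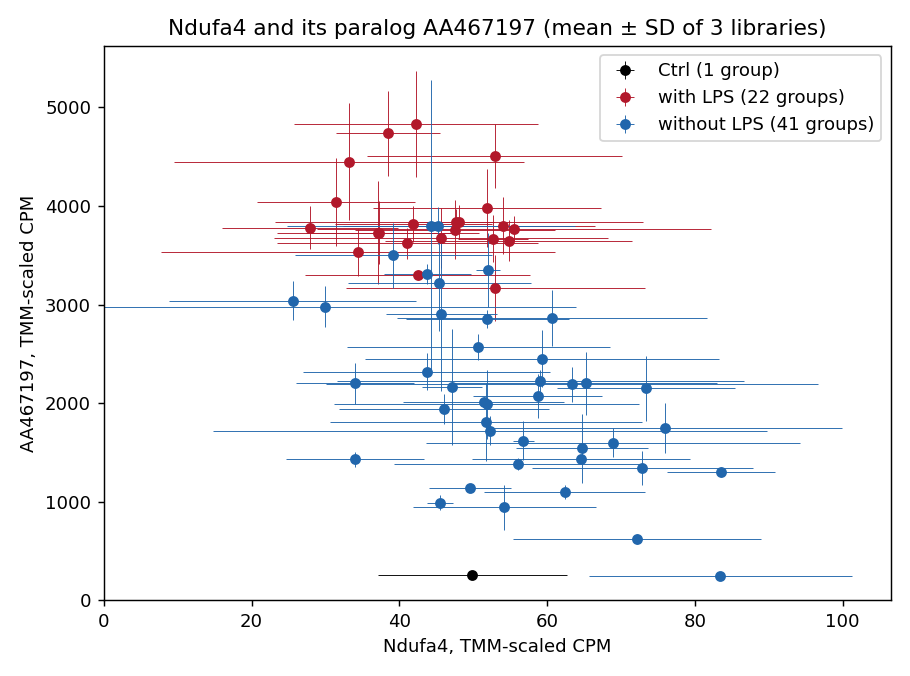
Mean level of Ndufa4 (x axis) against its paralog AA467197 (y axis), both in TMM-scaled CPM, for the 64 groups; bars are the SD of 3 libraries. Groups with LPS (red) lie at 3170 CPM or more of AA467197 and at 55.5 CPM or less of Ndufa4, and Ctrl (black) has little AA467197 at a middling level of Ndufa4.

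In ATP synthase the 3 genes of the c subunit, which forms the proton-driven rotor ring, moved by different amounts. Atp5g1 went from 127 to 93.6 CPM when cGAMP was added (-0.46 ± 0.07, edgeR, adjusted p = 3.57e-10), lower in 19 of 21 backgrounds, and from 128 to 96.3 with LPS (-0.41, 1.31e-08). It also fell with SeV (-0.23, 0.00252; -0.18 and 0.131 without replicate 3), Zymosan (-0.20, 0.00871; -0.11 and 0.481 thinned) and PAM (-0.17, 0.0296), the last lost without the 5 libraries (-0.15, 0.056) or replicate 3 (-0.13, 0.275). Atp5g2 fell with LPS (124 to 102 CPM; -0.28, 5.3e-05) and PAM (-0.16, 0.0247), the latter not with no filter (-0.13, 0.257), thinned (0.053) or without replicate 1 (0.145) or 3 (0.125). Atp5g3 went from 241 to 232 CPM with LPS (-0.05 ± 0.05, adjusted p = 0.386) and passed with SeV only (-0.12, 0.0309), but not with no filter (0.158) or without replicate 1 (0.123), 2 (0.147) or 3 (0.175). Whether these genes differ from each other in response was not tested.

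With LPS alone, however, Atp5g3 read 196, 240 and 162 CPM against 305, 300 and 317 in Ctrl, with no overlap (-0.64 ± 0.23, edgeR, adjusted p = 0.0239). This call was lost without Ctrl replicate 1 (adjusted p = 0.111), 2 (0.0507) or 3 (0.103) and without LPS replicate 3 (0.169). Atp5g2 read 94.3, 117 and 128 CPM with LPS and 165, 156 and 190 in Ctrl, also without overlap, and did not pass. Atp5g2 shares 14.8% and Atp5g1 11.6% of their 50-base words with other genes.

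The membrane subunit Atp5k rose with cGAMP and LPS. Its group means ran from 59.4 to 131 CPM (median 105) in the 22 groups with cGAMP and from 47.4 to 113 (median 78.2) without, with wide overlap. Adding cGAMP raised it by 0.48 ± 0.08 (edgeR, adjusted p = 2.96e-08; 75.4 to 104 CPM) and adding LPS by 0.29 (0.000784), with lower values in 3 of 21 backgrounds in both cases. The catalytic beta subunit Atp5b passed with CpGB (0.11, edgeR, adjusted p = 0.012) and SeV (-0.11, 0.0154). The first was lost by library size alone (0.05, 0.351), with no filter (0.129), thinned (0.113) and without replicate 1 (0.05, 0.406), and the second without the 5 libraries that stood apart (-0.09, 0.054), with no filter (0.133) and without replicate 1, 2 or 3 (0.176, 0.0992 and 0.104). Atp5h of the peripheral stalk, 1 of the most variable members, fell with Zymosan (226 to 194 CPM; -0.21, 0.000134; 20 of 21 backgrounds), LPS (-0.23, 1.61e-05), PAM (-0.17, 0.00179; -0.17 and 0.10 thinned) and cGAMP (-0.14, 0.00885; -0.09 and 0.199 without replicate 1), but 47.9% of its 50-base words occur in other genes.

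Over all 7 ligands, 44 of 70 members fell with at least 1 added ligand, 10 rose with at least 1, 5 did both and 21 were called with none. Of all genes tested, 57.9% fell and 53.6% rose with at least 1 ligand and 15.3% were called with none, so the share of members that fell (62.9%) lies near the background and the share that rose (14.3%) below it; without the 5 libraries that stood apart 40 members fell, 10 rose and 25 were called with none. Atp5g1, Ndufa2, Ndufs7 and Sdhd fell with 5 ligands each, and Atp5c1, Atp5d, Atp5h, Cox7a2l and Sdhb with 4.

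More ligands went with lower levels. Between the 35 triplets and the 7 single ligands, 30 members fell and 2 rose (25.5% of all genes fell and 25.6% rose), and 59 of 70 had a log2 difference below 0, with a median of -0.22 against -0.04 for all genes. Without the 5 libraries that stood apart, 26 fell and 2 rose, where 23.8% of all genes fell. With library size alone 55 fell, where 43.8% of all genes did and the all-gene median was -0.21, and in thinned libraries 15 of 31 did, where 27.7% of all genes fell. Of the 30 falls 12 stood in each of the 10 settings where tested, and of the 2 rises 0. Of those 12 falls, 7 were not tested in the thinned libraries. Between pairs and single ligands 12 fell and 0 rose (14.9% fell, 19.1% rose). Complex II was lower with all 4 genes (median -0.36), complex I with 15 of 31 (-0.28), ATP synthase with 8 of 15 (-0.17), complex IV with 3 of 11 (-0.01) and complex III with 0 of 8 (-0.13), where Uqcrfs1 rose. The counts were 4 of 4, 13 of 31, 6 of 15, 3 of 11 and 0 of 8 without the 5 libraries that stood apart.

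Ndufs7 had library medians of 140, 61.2, 43.1 and 37.4 CPM with 0, 1, 2 and 3 ligands, and its Ctrl mean of 126 CPM exceeded the highest stimulated group mean of 94. The triplet difference was -0.79 ± 0.13 (edgeR, adjusted p = 2.17e-08). Falls in complex I included Ndufa8 (-0.53, 0.000744; -0.34 and 0.0911 without replicate 1), Ndufb3 (-0.53, 0.00323), Ndufs1 (-0.52, 0.000179) and, chosen after its values were seen, Ndufa6 (-0.52, 0.000177). The others named here were Sdhd (-0.44, 5.39e-05) and Sdhb (-0.43, 0.000361) in complex II, Atp5g1 (-0.46, 6.06e-07) in ATP synthase and Ndufa4 (-0.42, 0.00136) and Cox7a2l (-0.39, 0.000811) in complex IV. Of these, Sdhb (-0.27, 0.0994) and Cox7a2l (-0.29, 0.0722) were lost without replicate 2. Sdhc (-0.29, 0.00495) and Sdha (-0.22, 0.0147) passed too, but neither with no filter (0.0686 and 0.177), Sdhc not thinned (0.215) or without replicate 2 or 3 (0.0534 and 0.14), and Sdha not without replicate 1, 2 or 3 (0.155, 0.0629 and 0.0884). Atp5k (0.34, edgeR, adjusted p = 0.00672) and Uqcrfs1 (0.30, 0.00314) rose, but by library size alone neither passed (0.17 and 0.189 for Atp5k, 0.13 and 0.22 for Uqcrfs1), Atp5k did not without replicate 3 of all groups (0.32, 0.0737), and Uqcrfs1 did not in the thinned libraries (0.11, 0.594). Atp5g2 fell (-0.28, 0.00172), while Atp5g3 stood at -0.08 (0.291), Cox4i1 at 0.04 (0.58), Uqcrh at 0.05 (0.629) and Atp5b at 0.01 (0.878); the signs of Cox4i1, Uqcrh and Atp5b turned under other scalings, library size alone giving -0.13 (adjusted p = 0.022), -0.12 (0.203) and -0.16 (0.00344). Atp5g3 passed as a fall by library size alone (-0.25, edgeR, adjusted p = 0.000194) and in the thinned libraries (-0.23, 0.048).

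Against Ctrl, pairs gave 165 falls and 7 rises in 1470 tests of members (11.2% fell; background 10.8% lower, 16.3% higher), and triplets 384 falls and 4 rises in 2450 (15.7%; background 12.8% lower, 18.4% higher). Without the 5 libraries the triplets gave 273 falls and 16 rises, where 11% of all tests were lower and 18.5% higher. Falls per pair ran from 1 in PAM+CpGB to 16 in LPS+Zymosan, and per triplet from 2 in PAM+HMW+CpGB to 18 in PAM+Zymosan+cGAMP and PAM+HMW+SeV. The share of all genes that fell was 7.1% and 13.2% in those pairs and 7.9%, 14.8% and 16.4% in those triplets. With the 5 libraries left out, the count of PAM+HMW+SeV, whose replicate 3 is the deepest library of the series, was 7 (all-gene share 10.6%), that of HMW+SeV+CpGB went from 10 to 5 (12.9% to 9.13%) and that of HMW+cGAMP+CpGB from 11 to 4 (13.3% to 11.4%). Ndufs7 was lower in 20 of 21 pairs and 35 of 35 triplets, Cox7a2l in 15 and 32, and Ndufb8, chosen here after its values were seen, in 15 and 26. Cox5a was the member with most rises, in 5 pairs and 2 triplets. Since all share the Ctrl libraries, these counts are not independent of each other.

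The pairs were also compared with the sum of their single effects, that is, the log2 change of the pair from Ctrl less the log2 changes of its 2 ligands from Ctrl, to ask whether effects add up. Of 1470 such interactions of members, 11 passed (0.748%), all above 0, which means a pair higher than the sum of its falls. The background was 0.909% above and 3.74% below 0, so the members' share above 0 lies near the background. Uqcrh with LPS+HMW read 138, 208 and 164 CPM, near Ctrl and above the LPS and HMW libraries given above, without overlap. That interaction was 1.96 ± 0.40 (edgeR, adjusted p = 0.000522), and 1.65 (0.192) without replicate 2 of all groups. Uqcrh with PAM+LPS read 183, 110 and 124 CPM (1.63 ± 0.41, 0.00204). Ndufc1 of complex I read 107, 93.9 and 68.3 CPM with LPS+CpGB, against 76.2, 48 and 99.8 in Ctrl and 43.5, 26.7 and 34 with LPS (2.14 ± 0.61, 0.00666; 1.80 and 0.0946 without Ctrl replicate 3).

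Single ligands compared with each other gave 35 member calls in 1470 tests (18.8% of all genes tested were called in either direction). LPS against HMW held 15 of them, 14 lower and 1 higher. The 18.8% is pooled over all 21 comparisons, and the all-gene share of LPS against HMW alone is not given here. Ndufs7 was lower by 1.70 on the log2 scale (-1.70 ± 0.41, edgeR, adjusted p = 0.000368), Atp5g3 by 0.74 (-0.74, 0.00167) and Sdhb by 1.19 (-1.19, 0.00454), and Uqcrfs1 was higher (0.79, 0.0289). The Ndufs7 call stood in each setting where it was tested, but it was not tested in the thinned libraries. There Atp5g3 was at -0.35 (0.421) and Uqcrfs1 at -0.21 (0.799). Sdhb was at -0.98 (0.0903) without replicate 3. Ndufs7 was also lower with LPS than with Zymosan (-1.40, 0.008), SeV (-1.27, 0.0494) and cGAMP (-1.52, 0.00778), but not in every setting (adjusted p up to 0.213, 0.441 and 0.125). With library size alone 46 were lower and 34 higher in the 1470 tests, where 10.4% of all tests were lower and 9.56% higher.

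Other mitochondrial genes were read from lists. Of 16 tested genes of the tricarboxylic acid cycle and pyruvate dehydrogenase, 10 fell and 0 rose with added LPS (median -0.29), where 29.2% of all genes fell and 27.9% rose, and 7 fell and 1 rose between triplets and single ligands (-0.31), where 25.5% fell and 25.6% rose. Idh1, the cytosolic isocitrate dehydrogenase, fell most (-1.60 ± 0.12 with LPS, edgeR, adjusted p = 1.58e-29), and against Ctrl it fell with 5 of 7 single ligands. Of 6 carriers and inhibitors, 5 fell with LPS, among them Ucp2 (-0.21, 1.4e-05) and Slc25a5 (-0.22, 1.43e-10), and cytochrome c (Cycs) rose (0.35, 4.63e-15). Cycs read 140, 264 and 218 CPM in Ctrl and 392, 331 and 425 with LPS, without overlap (0.88, edgeR, adjusted p = 0.00116). Of 13 tested assembly factors, 6 rose and 0 fell with LPS, among them Coa5, which read 203, 108 and 81.6 CPM in Ctrl and 305, 347 and 472 with LPS (1.60, 2.99e-08). Of 12 regulators of mitochondrial gene expression only 3 were deep enough to test, and 1 fell with LPS.

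Irg1, which makes itaconate, an inhibitor of complex II, read 368, 456 and 345 CPM in Ctrl and 3500, 4160 and 3590 with LPS (3.28, edgeR, adjusted p = 3.77e-55), and it rose with all 7 single ligands. Ribosomal protein genes were read for comparison. Between triplets and single ligands 12 of 37 mitochondrial ones fell and 1 rose (median -0.28), and 31 of 74 cytoplasmic ones fell and 4 rose (-0.10), where 25.5% of all genes fell and 25.6% rose. The members' median there was -0.22, between these lists; the differences between lists were not tested. Across the 64 groups, 11 of the 37 mitochondrial and 60 of the 74 cytoplasmic ribosomal genes varied, where 70% of all genes tested did.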

How the data were processed

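The deposited table holds whole-number UMI counts per gene symbol for 192 libraries. Per the labels' protocols, RNA of lysed cells was reverse transcribed with template switching, and the barcoded cDNA was pooled before amplification and sequencing; per the submitters' processing notes, BWA 0.7.15 and mm10 were used. Collapsing of UMIs, annotation, strand and the handling of multi-mapping reads are not given in the sources used here.

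Counts were fitted with edgeR 4.0.16 in R 4.3.3 (limma 3.58.1): filterByExpr by group (4720 of 23481 genes), TMM scaling, 1 coefficient per group and the quasi-likelihood test on 128 residual degrees of freedom. A call is an adjusted p (Benjamini-Hochberg over all genes tested) under 0.05; SE is the absolute log2 fold change over the root of F. The script was tested on simulated data. Alternatives were DESeq2 1.42.0 and its size factors in edgeR, library size alone, no filter, thinning to 46564 counts, a fold threshold of 1 on the log2 scale, fits with Ctrl alone, a replicate block and left-out replicates. Leaving out the 5 libraries that stood apart, and each Ctrl library for the interactions, was chosen after seeing the data. Shared 50-base words were counted in the transcripts of the reference.

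The members and lists were chosen with earlier results of these data known. Genes are named by a list of 13, and by rule: the 2 largest called falls and rises per single or added ligand among members with at least 20 CPM, the 5 largest and 3 smallest F, the 3 largest called falls and rises of triplets, the 3 interactions with the smallest adjusted p, and, of other lists, up to 3 genes each that were called in at least 4 single-ligand comparisons, besides AA467197. Others were chosen after their values were seen. A few genes are not reported here.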

Additional observations from a re-analysis of the deposited data

Results flagged for a closer look

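The 11 interactions of members in which a pair of ligands differed from the sum of its single effects by edgeR's quasi-likelihood test are listed here, on the log2 scale with their Benjamini-Hochberg adjusted p. All were above 0, and each rests on the 3 Ctrl libraries. They make up 0.748% of 1470 tests of members, near the 0.909% of tests of all genes that passed above 0. Below 0, 3.74% of tests of all genes passed.

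Uqcrh, the hinge protein of complex III, gave 4 of them: 1.96 with LPS+HMW (adjusted p = 0.000522), 1.63 with PAM+LPS (0.00204), 1.33 with LPS+CpGB (0.0114) and 1.24 with LPS+SeV (0.0283). LPS+HMW and PAM+LPS passed without each Ctrl library in turn (adjusted p up to 0.00823 and 0.013). The LPS+HMW call was lost without replicate 2 of all groups, as given above. Without Ctrl replicate 1 the third had an adjusted p of 0.061 and the last 0.12; without Ctrl replicate 2 the last had 0.0724.

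In complex I, Ndufc1 with LPS+CpGB gave 2.14 (adjusted p = 0.00666; 0.0946 without Ctrl replicate 3), Ndufb8 with PAM+CpGB 2.23 (0.012; 0.11 without Ctrl replicate 1), Ndufs7 with LPS+CpGB 1.87 (0.0256; 0.0655 without Ctrl replicate 1 and 0.107 without replicate 3) and Ndufv3 with SeV+cGAMP 1.77 (0.0465; 0.328 without Ctrl replicate 1 and 0.0733 without replicate 3), by the same edgeR test.

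In ATP synthase, Atp5j2 gave 1.77 with PAM+Zymosan (adjusted p = 0.0211; 0.288 without Ctrl replicate 3) and 1.44 with SeV+cGAMP (0.0435; 0.0925 without Ctrl replicate 1 and 0.405 without replicate 3). In complex IV, Cox6b1 with SeV+cGAMP gave 0.98 (0.0239; 0.0601 without Ctrl replicate 1 and 0.111 without replicate 3). Without those Ctrl libraries, 9 of the 11 were therefore not called.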

How the results depend on the processing

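Counts are of members called, in the order PAM, LPS, HMW, Zymosan, SeV, cGAMP, CpGB. Where no all-gene share is given for a count in this section, the count cannot be set against a background. Against Ctrl they were 4, 10, 1, 3, 5, 3 and 3; leaving out 1 replicate gave 1 to 4, 2 to 10, 0, 0 to 2, 0 to 4, 0 to 3 and 0 to 3. For added ligands they were 18, 35, 0, 24, 9, 24 and 7; leaving out 1 replicate number gave 6 to 13, 18 to 26, 0, 16 to 19, 0 to 6, 11 to 18 and 1 to 6. The same gave 19 to 25 for triplets (main count 32) and 5 to 7 for pairs (12) against single ligands. Against Ctrl it gave 50 to 137 for pairs (172) and 127 to 313 for triplets (388). Interactions gave 3 to 13 (11), comparisons between single ligands 11 to 25 (35) and the 64 groups 7 to 10 (25). All genes lower were 8.64% to 9% for pairs against single ligands, 6.21% to 8.36% for pairs and 7.73% to 10.1% for triplets against Ctrl. Between single ligands 6.77% to 7.75% were lower and 5.28% to 6.22% higher. Interactions above 0 were 0.348% to 0.695%, and 54.4% to 57.4% of all genes were called across the groups. In these runs the share of all genes called lower was 4.03% to 6.17%, 7.4% to 10.4%, 0% to 0.02%, 0.857% to 1.8%, 2.57% to 4.95%, 4.03% to 5.86% and 4.2% to 6.4% against Ctrl, 13.4% to 14.5%, 21.2% to 22.6%, 0.322% to 1.37%, 13.9% to 16.6%, 7.08% to 8.83%, 21.4% to 23% and 10.2% to 11.8% for added ligands and 18% to 19.4% for triplets against single ligands.

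DESeq2's size factors in edgeR gave 19 for LPS, 5 for cGAMP and 7 for CpGB against Ctrl, 315 for pairs, 663 for triplets and 22 interactions (all genes lower: 16.6%, 11.5%, 11.1%, 15.1% and 17.6%; interactions above 0: 1.44%). DESeq2 gave 0 for HMW and 5 for CpGB, 261 for pairs, 585 for triplets and 21 interactions (0.233%, 9.58%, 13.6% and 16.1%; 1.28%). Fits with Ctrl alone gave 7 for PAM, 5 for cGAMP and 7 for CpGB (18.1%, 19.5% and 21.8%). Without the 5 libraries that stood apart SeV had 3 (5.18%).

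Library size alone gave 7 for PAM, 25 for LPS, 8 for SeV, 9 for cGAMP and 10 for CpGB against Ctrl (all genes lower: 10.4%, 19.8%, 10.2%, 13.5% and 13.2%); 42 for added PAM, 16 for SeV, 47 for cGAMP and 15 for CpGB (33.9%, 24.3%, 44.3% and 21.7%); 55 for triplets and 33 for pairs against single ligands (43.8% and 29.4%); 456 for pairs and 953 for triplets against Ctrl (18.7% and 22.3%); 20 interactions, 80 between single ligands and 48 across the 64 groups (77.9% of all genes). It put the summed level at 11100 CPM in Ctrl, 8570 in PAM, 10600 in HMW, 8880 in Zymosan, 8470 in SeV and 8150 in cGAMP.

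With no filter, Ctrl comparisons gave 0, 5, 0, 1, 0, 0 and 1 (all genes lower: 1.33%, 2.25%, 0%, 0.249%, 0.74%, 1.34% and 1.49%); added PAM 5, LPS 20, SeV 3, cGAMP 15 and CpGB 1 (4.93%, 8.89%, 3.2%, 9.51% and 4.64%); triplets 19 and pairs 2 against single ligands (9.02% and 3.7%); pairs 48 and triplets 98 against Ctrl; 3 interactions, 15 between single ligands and 9 across groups (26.6%). Thinned to 46564 counts, fewer members were tested, and 1 random draw gave 1 for PAM, 0 for HMW, 1 for Zymosan and 3 for SeV against Ctrl (10.3%, 0.107%, 4.02% and 12.3%); added PAM 2, LPS 10, Zymosan 5, SeV 4, cGAMP 9 and CpGB 1 (18.6%, 30%, 20.8%, 13.7%, 28.2% and 14.4%); triplets 15 and pairs 6 against single ligands (27.7% and 15.5%); 3 interactions, 21 between single ligands and 10 across groups. A fold threshold of 1 on the log2 scale left 1 for cGAMP against Ctrl, 0 for each of the 6 added ligands with calls and for triplets and pairs against single ligands, 107 for pairs and 246 for triplets against Ctrl and 22 between single ligands. All-gene shares at the fold threshold are not given here, so the counts at that threshold say nothing about members relative to other genes. The causes were not tested beyond these constructions.

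Of 94 values of named genes, 21 kept their call and direction under every alternative run for them; 264 readings under 1 alternative lost the call and 12 turned. Between triplets and single ligands, Cox4i1 turned to -0.01 by DESeq2 and by its size factors in edgeR, -0.13 by library size alone, -0.11 thinned and, with 1 replicate number left out, lay between -0.06 and 0.12. Atp5b turned to -0.03 by DESeq2 and by its size factors, -0.16 by library size alone and -0.04 thinned. Uqcrh turned to -0.12 by library size alone and lay between 0 and 0.18 with 1 replicate number left out. None of these was called in the main analysis. Sdhd with added PAM, called at -0.26, turned to 0.09 thinned.

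The replicate numbers do not pair the samples: deviations of same-numbered libraries correlated at 0.00828 on average. With the replicate block the counts were 4, 11, 1, 3, 5, 3 and 3 against Ctrl, 18, 35, 0, 24, 9, 26 and 8 for added ligands, 32 and 12 for triplets and pairs against single ligands, 175 and 395 for pairs and triplets against Ctrl, 12 interactions, 36 between single ligands and 27 across groups. All-gene shares with the replicate block are not given here, so these counts are not set against a background. The depth of the Ctrl libraries (61823 to 89530 counts) limits all comparisons with them.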

Other observations

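Of the assembly factors, Higd1a and Cox17, chosen after their values were seen, moved more than any member when a ligand was added. Higd1a, a small inner membrane protein tied to complex IV, rose by 1.10 on the log2 scale with Zymosan (edgeR, adjusted p = 1.79e-33) and 1.01 with cGAMP. Cox17, the copper chaperone of complex IV, rose by 0.90 with cGAMP (2.89e-28) and 0.43 with LPS. In the tricarboxylic acid cycle, Fh1 fell with LPS (-0.60), as did Suclg1 (-0.42) and Mdh2 (-0.30), while citrate synthase Cs stood at 0 and was not called.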
